A study of Rattus norvegicus with 6 samples.

Results

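The ubiquitin-conjugating enzymes (E2) of rat whole blood were compared between rats with an experimental stroke and sham-operated rats. The genes were all those whose symbol in the array annotation starts with Ube2, taken from probe sets that carry 1 symbol, and each gene was represented by its probe set with the highest mean over the 6 arrays. This gave 29 Ube2 genes of 14217 genes in all, from 52 of 20826 probe sets with 1 symbol. A further 8 probe sets that pair a Ube2 symbol with another gene were left out of these counts. The animals were male Sprague-Dawley rats, 8 weeks old. In the middle cerebral artery occlusion (MCAO) group a coated thread closed the origin of the left middle cerebral artery and was later withdrawn, and in the sham group the operation was the same with an uncoated thread. Blood was drawn from the heart 24 h after reperfusion, and RNA of 3 MCAO and 3 sham rats was hybridised to 1 array per rat. All rats thus carried the anesthesia, the neck surgery and the ligated carotid arteries, and the 3 MCAO rats on the arrays had been picked from a larger operated group for a similar share of infarcted brain. Nothing in the sources says that the rats came from separate litters or days, and p-values measure only the spread between these rats.

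Ubiquitin is first activated by an E1 enzyme, passed to the active-site cysteine of an E2, and then placed on a substrate with the help of an E3 ligase. Different E2 enzymes start or extend different kinds of ubiquitin chain, and a few carry ubiquitin-like proteins such as NEDD8 or ISG15 instead. Ube2c and Ube2s work with the anaphase-promoting complex (APC/C), the ligase that ends mitosis, where Ube2c starts chains and Ube2s extends them. Ube2o and Ube2h are abundant in reticulocytes, the young red cells: Ube2o marks unassembled proteins and ribosomal proteins for removal as the cell matures, and Ube2h serves the CTLH ligase with its subunit Maea.

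Of the mitotic and reticulocyte genes, Ube2s and Ube2h have a promoter entry in RefSeq (build GRCr8), and these are shown because the report turns on these genes. Each is the 250 bases before the annotated start, 5′ to 3′ on the gene's strand, Ube2s at chr1:78057409-78057658 (+) and Ube2h at chr4:59897584-59897833 (-). Capitals mark the motifs found. The search covered, on both strands, the CCAAT box (CCAAT), the cell cycle genes homology region (CHR, spelled TTTGAA or, as the other form, TTCGAA), the GATA motif of erythroid factors (GATA with A or T before it and A or G after it) and the TATA box (TATAAA).
Ube2s: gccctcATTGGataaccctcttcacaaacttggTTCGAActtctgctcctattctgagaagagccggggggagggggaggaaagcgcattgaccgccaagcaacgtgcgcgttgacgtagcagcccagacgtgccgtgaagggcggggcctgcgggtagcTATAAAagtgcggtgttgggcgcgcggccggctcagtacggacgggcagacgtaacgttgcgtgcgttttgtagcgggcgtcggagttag
Ube2h: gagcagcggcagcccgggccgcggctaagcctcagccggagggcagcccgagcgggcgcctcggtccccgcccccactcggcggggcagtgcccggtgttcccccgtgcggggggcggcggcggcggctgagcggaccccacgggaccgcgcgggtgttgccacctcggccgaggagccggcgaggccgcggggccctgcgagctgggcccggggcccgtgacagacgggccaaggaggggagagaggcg
The Ube2s window held a CCAAT box on the minus strand 244 to 240 bases before the start, a TTCGAA 217 to 212 bases before it and a TATA box 90 to 85 bases before it. The Ube2h window held none of the searched motifs, which says only that these letters are not in it, and its GC content was 81.2% against 60.8% in Ube2s. Among the 25 Ube2 genes with an entry, 9 held a CCAAT box, 3 a CHR motif (Ube2f, Ube2m and Ube2s), 3 a GATA motif and 2 a TATA box. The shares over all 33469 promoters of the same length were 34.02%, 17.37%, 27.02% and 12.93%. The median GC content was 64.4% in the Ube2 genes and 51.2% in all promoters.

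All values were log2 signals made with the DFW (Distribution Free Weighted) method, which sums up each probe set and shrinks most of them to nearly the same value on every array. Over the 31042 probe sets tested, the median range (highest minus lowest of the 6 arrays) was 6.55e-06 log2 units. A difference on this scale is therefore not a fold change of RNA, and its size cannot be compared between probe sets. Signals of different probe sets likewise do not rank RNA amounts between genes. In bulk blood, fewer cells of a type and less RNA per cell cannot be told apart. Further scalings were set beside the deposited one, namely quantile normalization and centring of each array on its median. Centring added the same 2.98e-05 to every difference, so the sign of any difference just below 0 turned by construction. Quantile normalization likewise gave 0 by construction to a probe set with the same rank on all arrays. Such a 0 does not show that its groups were equal. Among markers of the labelled tissue, Hbb (a hemoglobin chain) had a signal of 14.21 and Alas2 (which starts heme synthesis) 12.99, and 9 brain markers lay between 5.14 and 6.78. As probe sets differ in how well they bind, these signals describe the samples and do not settle the tissue label.

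The Ube2 signals ran from 5.31 (Ube2d2b) to 11.75 (Ube2o). Apart from Ube2o, the genes over a signal of 8 were Ube2s (9.67), Ube2r2 (9.22), Ube2b (8.84), Ube2m (8.40) and Ube2c (8.38). The range over the 6 rats exceeded 0.001 in 8 of the 29 genes (27.6%), against 5.09% of all genes, and exceeded 0.01 in Ube2c and Ube2s. The median range was 0.00011 in the Ube2 genes and 8.85e-06 in all genes.

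Rank Products, the method the study used to call probe sets, called Ube2c and Ube2s lower in MCAO at a false discovery rate (FDR) under 0.05 and called no Ube2 gene higher. The other 27 genes were not called. The FDR came from permuting the probe sets within each array, so it does not measure the spread between rats. Over all genes, 0.935% were called lower and 0.134% higher, and over all probe sets tested 0.606% and 0.129%. These calls followed the range of a probe set: 60.7% of the 168 probe sets with a range over 0.01 were called in either direction, 13.1% of the 913 between 0.001 and 0.01, and 0.0200% of the rest. Ube2c and Ube2s are both in the first class, where 48.2% of the probe sets were called lower and 12.5% higher, and their calls are to be read against the 48.2%. With limma, which weighs a difference against the spread between rats, the adjusted p was under 0.05 for no Ube2 gene and for no other gene. At an unadjusted p under 0.05, limma gave 1 Ube2 gene (Ube2o) and 3.86% of all genes.

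The mitotic pair had the widest ranges. Ube2c gave 8.3858, 8.3719 and 8.3797 in MCAO rats 1, 2 and 3, and 8.3818, 8.3950 and 8.3775 in sham rats 1, 2 and 3. The highest value was in sham rat 2 and the lowest in MCAO rat 2, and sham rat 3 lay below MCAO rats 1 and 3, so the groups overlapped. The difference (MCAO minus sham) was -0.0056 ± 0.0062 (SE, n = 3 per group), with a Rank Products FDR of 0.0287 and an exact permutation p of 0.5 (two-sided). With 3 against 3 rats, the smallest p such a test allows is 0.1.

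Ube2s gave 9.6766, 9.6626 and 9.6582 in MCAO rats 1, 2 and 3, and 9.6622, 9.6741 and 9.6781 in sham rats 1, 2 and 3. Here too the groups overlapped: MCAO rat 1 was above sham rats 1 and 2, and sham rat 1 lay below MCAO rat 2. The difference was -0.0057 ± 0.0069 (SE, n = 3 per group), with an FDR of 0.0322 and an exact permutation p of 0.5. After quantile normalization of the arrays Ube2s held the same rank on all of them and its difference was 0, whereas Ube2c had -0.0087 (FDR 0.0045). A second Ube2s probe set, with a signal of 5.55, had a difference of 5.9e-07.

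Both calls were lost when certain rats were left out. The FDR of Ube2c was 0.193 without MCAO rat 2, 0.158 without sham rat 1, 0.706 without sham rat 2 and 0.0965 without sham rat 3. The FDR of Ube2s was 0.204 without MCAO rat 3, 0.0704 without sham rat 1, 0.370 without sham rat 2 and 0.564 without sham rat 3. Each of these is over the threshold. The difference of Ube2c shrank to -0.00052 without sham rat 2 and to -0.0020 without MCAO rat 2, but was -0.0071 without sham rat 1 and -0.0093 without sham rat 3. That of Ube2s was -0.0019 without MCAO rat 3, -0.0024 without sham rat 3 and -0.0044 without sham rat 2, but -0.0103 without sham rat 1. The losses were not particular to these genes, since the lower calls over all probe sets went from 188 to 43, 21 and 12 without sham rats 1, 2 and 3. Ube2c and Ube2s did not have the same order of rats, since sham rat 3 was the second lowest in Ube2c and the highest in Ube2s.

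**Figure D1:**
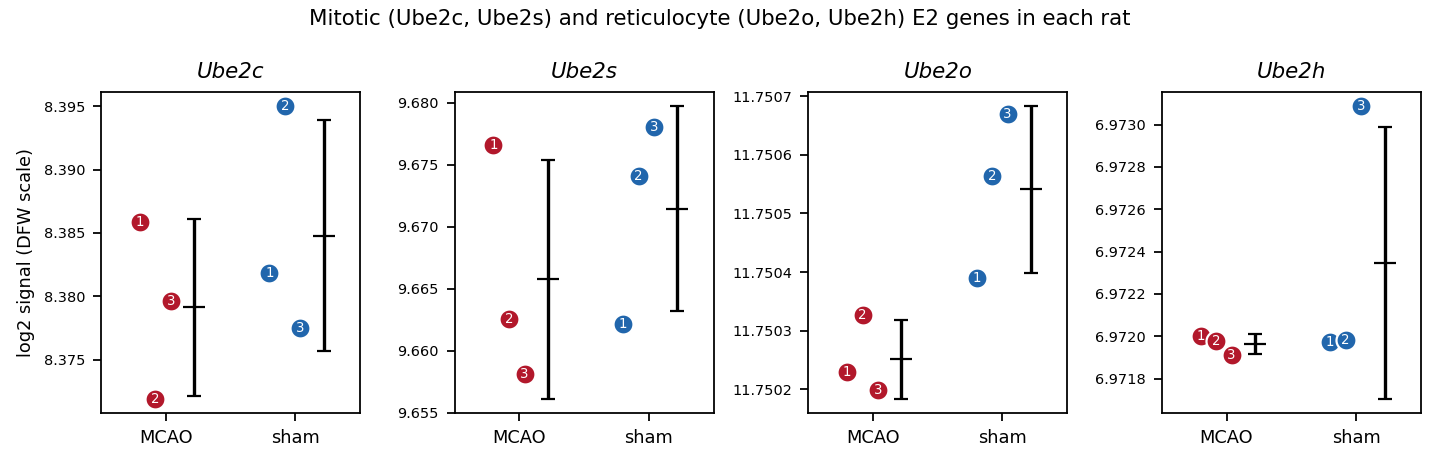
Signal of Ube2c, Ube2s, Ube2o and Ube2h in each rat (log2, DFW scale; a separate y axis for each gene, not starting at 0). Numbered points are rats and bars are the mean ± SD of 3 rats per group. The groups overlap in Ube2c, Ube2s and Ube2h, where sham rat 3 stands apart, and do not overlap in Ube2o. After quantile normalization the difference was 0 in Ube2o and Ube2s, which held the same rank on all arrays. In Ube2h it turned positive.

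The reticulocyte pair was not called by Rank Products. Ube2o gave 11.75023, 11.75033 and 11.75020 in MCAO rats 1, 2 and 3, and 11.75039, 11.75056 and 11.75067 in sham rats 1, 2 and 3. Every MCAO rat was below every sham rat, which held for 1 of the 29 Ube2 genes and for 4.11% of all genes, and no Ube2 gene had every MCAO rat above every sham rat (4.43% of all genes). The difference was -0.00029 ± 8.5e-05 (SE, n = 3 per group), with an FDR of 0.105, an exact permutation p of 0.1 and a limma unadjusted p of 0.0225 (adjusted p 1). It was -0.00026 after centring each array on its median. After quantile normalization it was 0 by construction, since Ube2o held the same rank on all arrays.

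Ube2h gave 6.97200, 6.97198 and 6.97191 in MCAO rats 1, 2 and 3, and 6.97197, 6.97198 and 6.97309 in sham rats 1, 2 and 3. Sham rat 3 stood apart and the other 5 rats lay close together. The difference was -0.00038 ± 0.00035 (SE, n = 3 per group; FDR 0.542; exact permutation p of 0.5), was -1.27e-05 without sham rat 3 and turned to 0.00051 after quantile normalization. In each of the 3 Ube2h probe sets, sham rat 3 was the highest.

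Erythroid markers were read beside this pair. Of 38 measured reticulocyte and erythroid genes, 29 (76.3%) had their highest value in sham rat 3, as did Ube2o and Ube2h, against 18.6% of all genes. Sham rat 3 was also the highest in 5 of 8 B cell markers (62.5%) and 9 of 15 cullin-RING core genes (60%). It was the highest in 2 of 17 T cell markers, 1 of 13 platelet markers and no neutrophil marker. The erythroid list's mean signal ran from 8.98518 to 8.98540 in the MCAO rats and from 8.98534 to 8.98657 in the sham rats. The groups thus overlapped. A lower mean in MCAO was seen in 35 of the 38, against 50.2% of all genes. After quantile normalization it was seen in 15 (17 more at 0), against 39.6% of all genes, and after centring in 24, against 11.1%. Rank Products called 3 of the 38 lower and none higher, against 0.935% and 0.134% of all genes. They were Kel, a blood group antigen, at -0.0041 ± 0.0014 (SE; FDR 0.00393), Tfrc, the transferrin receptor, at -0.0066 ± 0.0049 (FDR 0.0193), and Xpo7, a nuclear exporter of maturing red cells, at -0.0041 ± 0.0025 (FDR 0.0104). Differences of this size put all 3 in the classes with a range over 0.001. There 11.7% (range up to 0.01) or 48.2% (range over 0.01) of probe sets were called lower. All 3 calls were lost after quantile normalization and without sham rat 2 or sham rat 3. Those of Kel and Xpo7 were also lost without sham rat 1, and that of Tfrc without MCAO rat 3. The part of red cell content in the values of Ube2o and Ube2h was not tested.

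Proliferation genes were read beside the mitotic pair. None of 48 measured genes was called lower, and 28 had a lower mean in MCAO (18 after quantile normalization and 4 after centring). Over all genes, 50.2% had a lower mean (39.6% after quantile normalization and 11.1% after centring). Mki67, the antigen detected by the Ki-67 stain, was called higher, with 6.97771, 6.97905 and 6.97721 in MCAO rats 1, 2 and 3 against 6.97647, 6.97612 and 6.97611 in sham rats 1, 2 and 3. Its groups did not overlap, and the difference was 0.0018 ± 0.00053 (SE, FDR 0.00143, exact permutation p of 0.1). The Mki67 call was lost without MCAO rat 1 or MCAO rat 2 and after quantile normalization, where the difference was 0.0019. It was 1 of 48 genes called higher, against 0.134% of all genes and 1.42% of probe sets with a range from 0.001 to 0.01, its class. In the list, 2 genes had every MCAO rat above every sham rat and 2 below, against 4.43% and 4.11% of all genes. Of 19 APC/C subunits, co-activators and inhibitors (Fbxo5, Mad2l1 and Bub1b) none was called. A lower mean in MCAO was seen in 17 (4 after quantile normalization and 2 after centring), against the same shares of all genes. In 2 of them every MCAO rat was below every sham rat, against 4.11% of all genes. They were Anapc1 (-3.9e-06, and 7.9e-06 after quantile normalization) and the co-activator Fzr1 (-0.00030 ± 0.00013, FDR 0.164, and 0 after quantile normalization). Anapc11, the catalytic RING subunit, had a difference of -9.5e-05 ± 8.2e-05 (FDR 0.479), which turned positive after quantile normalization.

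Among the E2 enzymes of ubiquitin-like proteins, Ube2m, which carries NEDD8 to cullins, was nearest to a call. It gave 8.39765, 8.39597 and 8.39636 in MCAO rats 1, 2 and 3, and 8.39664, 8.39767 and 8.39927 in sham rats 1, 2 and 3. Sham rat 3 was the highest and the groups overlapped (difference -0.0012 ± 0.00086, SE; FDR 0.0541). Without MCAO rat 1, Rank Products called Ube2m lower. Ube2l6, the interferon-induced E2 of ISG15, gave 6.33438, 6.33366 and 6.33487 in MCAO rats 1, 2 and 3 and 6.33384, 6.33416 and 6.33435 in sham rats 1, 2 and 3. MCAO rat 3 was the highest and MCAO rat 2 the lowest, with a difference of 0.00019 ± 0.00036. Isg15 itself had its highest value in the same rat as Ube2l6, with 6.23165, 6.22274 and 6.26439 in MCAO rats 1, 2 and 3 and 6.23116, 6.24233 and 6.23395 in sham rats 1, 2 and 3, and was not called (0.0038 ± 0.012). The other E2 enzymes of this kind were Ube2f, also for NEDD8, at -1.54e-05, and Ube2z, which serves FAT10, at -1.65e-07.

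Among the E2 enzymes of DNA repair and chromatin, Ube2b, a partner of Rad18 that also modifies histone H2B, had the widest range after the mitotic pair. It gave 8.83656, 8.83636 and 8.83514 in MCAO rats 1, 2 and 3, and 8.83370, 8.83503 and 8.83734 in sham rats 1, 2 and 3. The sham rats held both the lowest and the highest value (difference 0.00066 ± 0.0011, SE; FDR 0.252; 0 after quantile normalization). Without sham rat 3 it was called higher. All 4 Ube2b probe sets had a higher mean in MCAO, but 3 of them were at 0 and 1 was lower after quantile normalization. Ube2t, the E2 of the Fanconi anemia pathway, gave 5.400698, 5.400681 and 5.400655 in MCAO rats 1, 2 and 3 and 5.400696, 5.400707 and 5.400694 in sham rats 1, 2 and 3. MCAO rat 3 was the lowest and the groups overlapped (difference -2.1e-05 ± 1.2e-05), and the sign turned under quantile normalization. Ube2a, the close relative of Ube2b, had a difference of -5.8e-06.

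Ube2r2, a relative of Cdc34 that serves cullin-RING ligases, gave 9.21453, 9.21510 and 9.21456 in MCAO rats 1, 2 and 3, and 9.21479, 9.21557 and 9.21611 in sham rats 1, 2 and 3. Sham rats 2 and 3 were above all MCAO rats and sham rat 1 was below MCAO rat 2. The difference was -0.00076 ± 0.00040 (SE, FDR 0.0869). Ube2r2 was called lower without MCAO rat 2. The 4 Ube2d and Ube2e genes, broad partners of RING ligases, ran from -0.00060 (Ube2d2, FDR 0.251) to -4.6e-08 (Ube2d1).

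Ube2n builds ubiquitin chains together with an inactive partner such as Ube2v2. Ube2v2 gave 5.652371, 5.652395 and 5.652391 in MCAO rats 1, 2 and 3 and 5.652386, 5.652402 and 5.652421 in sham rats 1, 2 and 3. Sham rats 2 and 3 were the highest and sham rat 1 was below MCAO rats 2 and 3 (difference -1.7e-05 ± 1.2e-05), and the sign turned under quantile normalization. Ube2n had a difference of -4.9e-07. A second Ube2n probe set had -6.2e-05 ± 3.0e-05 (-6.4e-05 after quantile normalization), with overlapping groups and no call.

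The 4 E2 enzymes of endoplasmic reticulum degradation ran from -0.00017 (Ube2j1) to 2.7e-06 (Ube2j2), and none was called. After quantile normalization Ube2j1 was at 0.0011 and Ube2g1 went from -3.7e-05 to 6.6e-05. Ube2j2 gave 6.134737, 6.134741 and 6.134744 in MCAO rats 1, 2 and 3 and 6.134728, 6.134752 and 6.134734 in sham rats 1, 2 and 3. Sham rats held the lowest and the highest value. Ube2q2 gave 5.808081, 5.808085 and 5.808092 in MCAO rats 1, 2 and 3 and 5.808076, 5.808086 and 5.808089 in sham rats 1, 2 and 3, again overlapping. Ube2ql1 gave 6.1419085, 6.1419089 and 6.1419023 in MCAO rats 1, 2 and 3 and 6.1419051, 6.1419028 and 6.1419009 in sham rats 1, 2 and 3, where MCAO rats 1 and 2 were the highest and MCAO rat 3 was below sham rats 1 and 2. The sign of Ube2j2, Ube2q2 and Ube2ql1 turned after quantile normalization. Ube2k (-0.00012), Ube2l3 (-0.00011), Ube2q1 (-4.7e-06), Ube2u (-1.2e-06) and Ube2d2b (-2.6e-07) complete the 29 genes, and none of them was called. Ube2d3, Ube2e1, Ube2v1 and Ube2v1l1 were measured only by the 8 shared probe sets, none of which was called. The nearest to a call, shared by Ube2d2 and Ube2d3, had a difference of -0.0018 ± 0.0010 (SE, FDR 0.0703), and its groups overlapped.

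**Figure D2:**
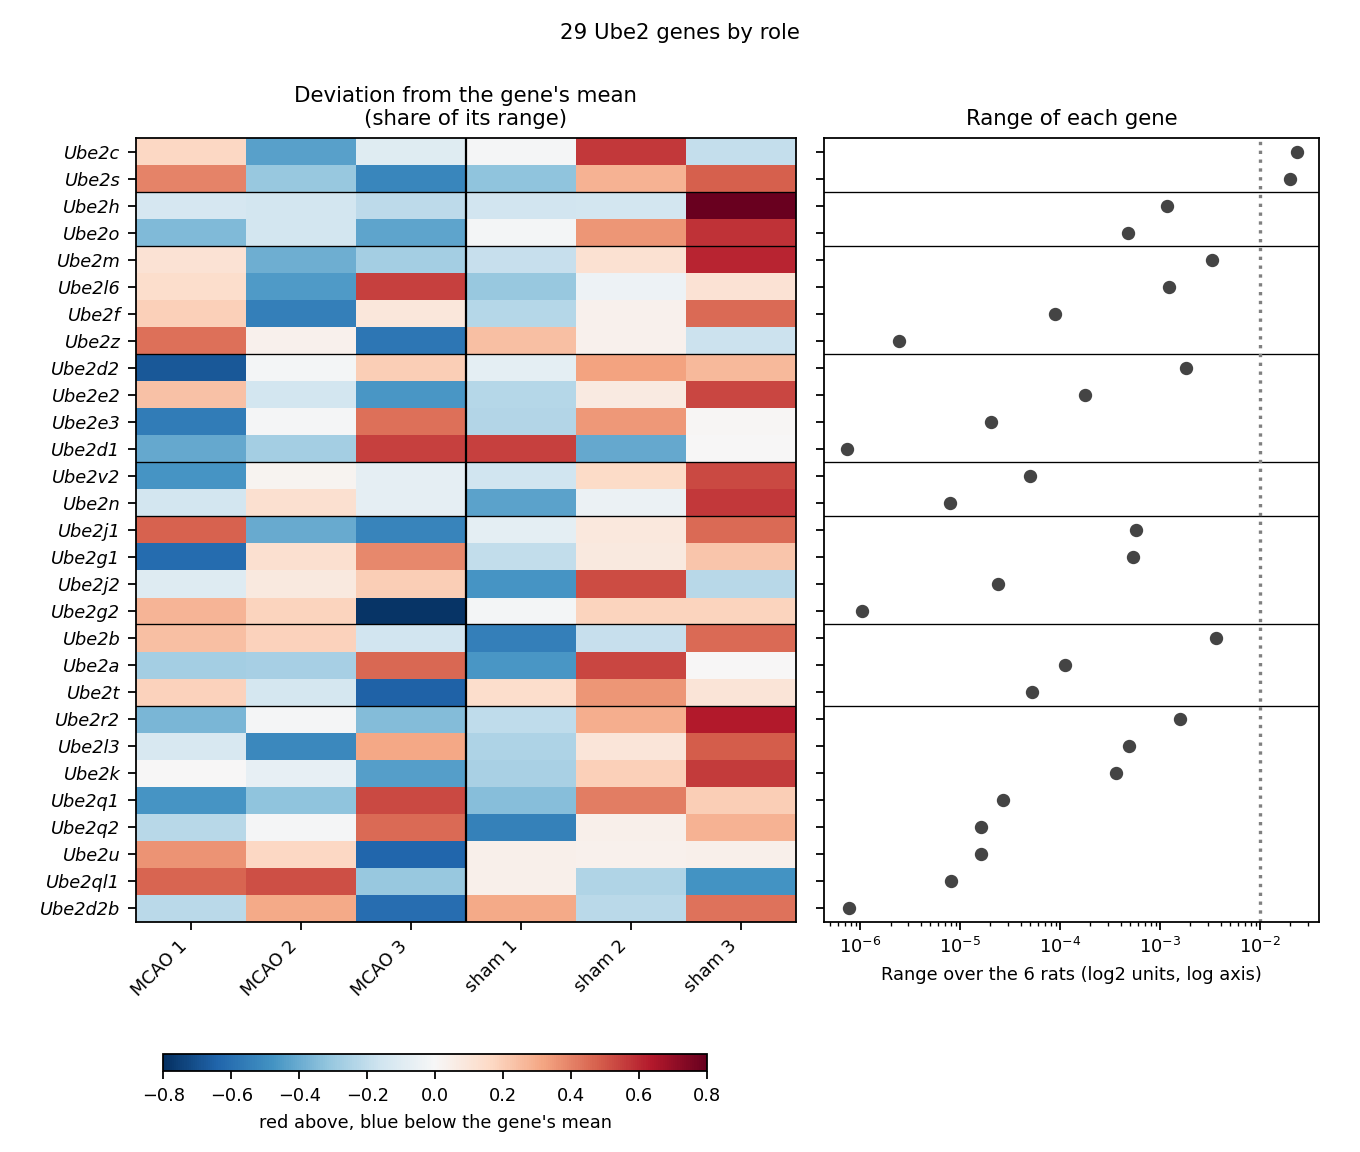
Left, deviation of each rat from the gene's mean over the 6 rats, as a share of the gene's range (red above, blue below), with lines between the groups of genes by role. Right, the range of each gene (log2 units, log axis; dotted line at 0.01). Sham rat 3 was the highest in 13 of the 29 genes and MCAO rat 3 the lowest in 11, and Ube2c and Ube2s have the widest ranges.

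Across the family, sham rat 3 had the highest value in 13 of the 29 genes (44.8%, against 18.6% of all genes) and MCAO rat 3 the lowest in 11 (37.9%, against 18.6%). MCAO rat 1 was the highest in 4 genes (13.8%, against 28.3%). A further 5 genes were highest in sham rat 2, 5 in MCAO rat 3, 1 in MCAO rat 2 and 1 in sham rat 1.

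The mean was lower in MCAO in 24 of the 29 genes (82.8%) against 50.2% of all genes, but this count was 12 of 29 after centring each array on its median, where 11.1% of all genes were lower, and 16 of 29 after quantile normalization, where 39.6% were. The median difference was -1.54e-05 in the Ube2 genes and -3.0e-09 in all genes, and centring moved these medians to 1.44e-05 and 2.98e-05. Under quantile normalization 14 of the 29 genes kept their sign, 9 turned and 6 were at 0. Direction also moved with the range. Among genes with a range over 0.001, 6 of 8 Ube2 genes were lower (75%) against 590 of 723 genes in all (81.6%), whereas up to 0.001 it was 18 of 21 (85.7%) against 6542 of 13494 (48.5%). Of the 16 Ube2 genes with several probe sets, 9 had all of them on the same side and 7 did not.

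**Figure D3:**
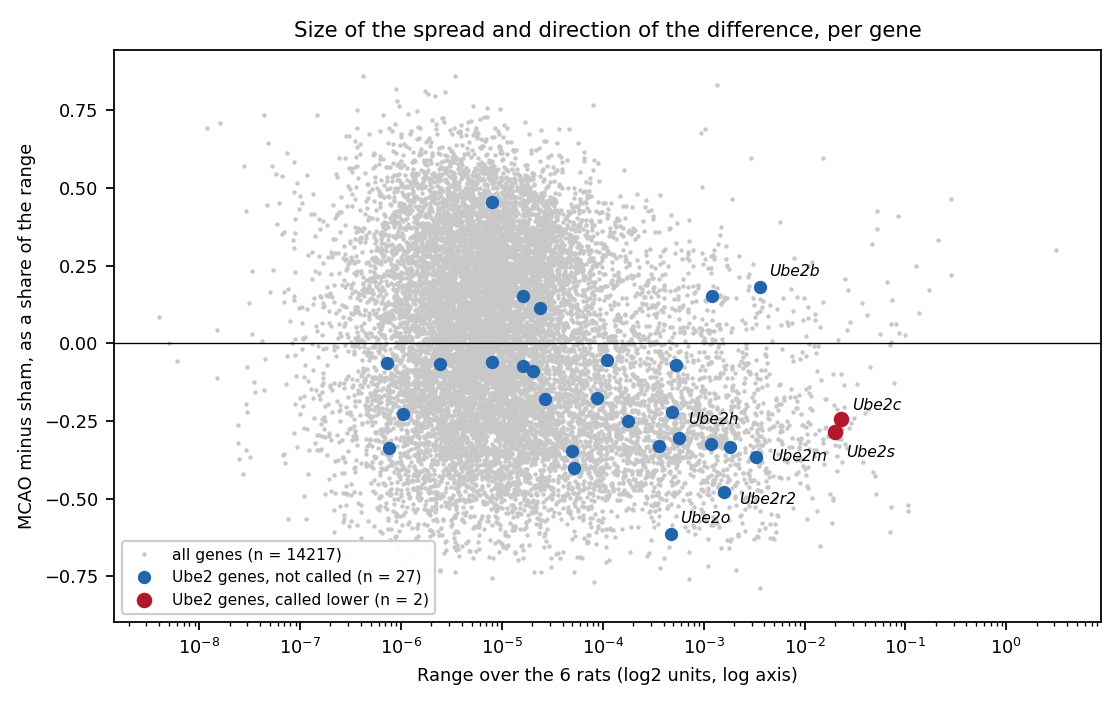
Range of each gene over the 6 rats (log2 units, log axis) against its difference (MCAO minus sham) as a share of that range. Grey points are all 14217 genes, blue points the 27 Ube2 genes not called and red points Ube2c and Ube2s, called lower. Of the 8 Ube2 genes with a range over 0.001, 6 lie below 0, a side that changed in Ube2h and became 0 in Ube2s under quantile normalization.

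The rest of the ubiquitin system gave few calls. Where a list had none, 2 genes are given by the number of signal units between the groups, which sets no order of effect between probe sets. Any gene whose groups did not overlap follows. Over all genes, 4.11% had every MCAO rat below every sham rat and 4.43% every MCAO rat above. None of 9 measured E1 activating enzymes was called, with 8.6e-05 ± 0.00012 in Atg7, the E1 of autophagy, and -5.5e-05 ± 8.6e-05 in Uba2, a subunit of the SUMO E1, which was 0 after quantile normalization. In Uba6, an E1 of ubiquitin and FAT10, every MCAO rat was below every sham rat (-9.9e-06 ± 2.8e-06, limma adjusted p 1). None of 8 ubiquitin-like modifiers was called, with Isg15 as given above and Sumo2 at -0.0010 ± 0.00078. In Ufm1, another such modifier, every MCAO rat was above every sham rat (4.4e-06 ± 1.3e-06, limma adjusted p 1). Its difference was -0.00015 after quantile normalization. None of 15 cullin-RING core genes was called, with -0.00048 ± 0.00032 in Rbx1, the RING subunit, and -0.00025 ± 0.00031 in Elob, an adaptor (0 after quantile normalization). In Cul5, a scaffold, every MCAO rat was below every sham rat (-7.8e-05 ± 4.9e-05, and 0 after quantile normalization). None of 27 E3 ligase genes of several classes (RING, RBR, HECT and U-box) was called, with -4.9e-05 ± 2.8e-05 in Arih1 and -4.3e-05 ± 3.1e-05 in Syvn1. Maea, of the ligase that Ube2h serves, had -1.9e-05 ± 1.9e-05.

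Of 6 genes with an E2 fold but another name, 1 was called lower, against 0.935% of all genes. Tsg101, an inactive E2 relative of the ESCRT sorting machinery, gave 7.14476, 7.14433 and 7.14410 in MCAO rats 1, 2 and 3 and 7.14528, 7.14537 and 7.14641 in sham rats 1, 2 and 3. Every MCAO rat was below every sham rat, sham rat 3 was the highest, and the difference was -0.0013 ± 0.00039 (SE; FDR 0.0224; exact permutation p of 0.1). Its range puts it in the class where 11.7% of probe sets were called lower, and the call was lost without any 1 of the sham rats and after quantile normalization. Every MCAO rat was also below every sham rat in Ufc1 (-7.4e-06 ± 3.4e-06, not called). This held in 2 of the 6 genes, against 4.11% of all genes.

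Markers of blood cells were read beside the Ube2 genes, again against 0.935% of all genes called lower, 0.134% higher and 4.11% with every MCAO rat below every sham rat. A lower mean in MCAO was seen in 50.2% of all genes (39.6% after quantile normalization and 11.1% after centring). Of 8 B cell markers, all had a lower mean in MCAO (7 after quantile normalization and 5 after centring), 7 had every MCAO rat below every sham rat, and 3 were called lower (Cr2, Fcmr and Ms4a1, -0.00083 to -0.0051). Their mean signal ran from 6.23738 to 6.23895 in MCAO rats and from 6.23908 to 6.24040 in sham rats. Of 17 T cell markers, Cd3g and Tcf7 were called lower, and of 13 NK and cytotoxic markers, Ccl5 and Prf1 were. Lower means were seen in 14 of the 17 and 12 of the 13 (12 and 9 after quantile normalization, 8 and 10 after centring). Every MCAO rat was below every sham rat in 1 T cell marker and in no NK and cytotoxic marker. Of 12 neutrophil markers Csf3r and Il1r2 were called higher and S100a9 was called lower, although its mean was higher in MCAO by 0.0027 ± 0.028. Of 12 monocyte markers Cybb was called lower, and of 13 platelet markers Rab27b and Slc18a2 were called higher. A lower mean was seen in 3 of the 12 neutrophil, 6 of the 12 monocyte and 1 of the 13 platelet markers. These counts were 3, 4 and 1 after quantile normalization and 2, 4 and 1 after centring. Every MCAO rat was above every sham rat in 1 neutrophil and 3 platelet markers, against 4.43% of all genes. All probe sets called lower had a range over 0.001, where 11.7% (range up to 0.01) or 48.2% (range over 0.01) were called lower. The shares called higher in these 2 classes were 1.42% and 12.5%, against 0.0200% at smaller ranges. None of the lower calls in these lists held without sham rat 2 or without sham rat 3. None of the higher calls held without MCAO rat 2 or after quantile normalization. MCAO rat 3 was the highest in 10 of the 12 neutrophil, 7 of the 12 monocyte and 10 of the 13 platelet markers. It was also the highest in 5 of 9 E1 enzymes, 4 of 13 NK and cytotoxic markers and 1 of 17 T cell markers. Over all genes the share was 16.7%. None of the 9 brain markers was called, with differences of 1.1e-05 in Mbp and 6.1e-06 in Mog, both of myelin. Yet every MCAO rat was above every sham rat in 3 of these 9 and below in 1. Groups without overlap were thus also seen in a list that blood should lack. The part of these cell types in the values of the Ube2 genes was not tested.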

How the data were processed

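The authors normalized the array scans together with DFW in R and deposited the log2 signals, 1 for each probe set in each rat. The log base was read from the value range. Total RNA of 3 MCAO and 3 sham rats was measured on Affymetrix GeneChip rat expression arrays. The number of arrays limits the precision. Probe sets were named from the platform annotation, and 57 control probe sets of 31099 were left out. Rank Products was written in Python 3.11.15 (numpy 2.4.6, all 9 MCAO-sham differences, 100 permutations, FDR under 0.05). On simulated data it recovered the changed probe sets where all spreads were equal. With the unequal spreads of the deposited values, most of its calls were probe sets that had not been changed. Each simulated shift was a multiple of the probe set's own spread, so shifts in narrow probe sets could not rank high and low recovery was built in. A call or FDR here is not by itself evidence of a difference. Differences and SE came from limma 3.58.1 (R 4.3.3), and exact permutation tests used all assignments of the 6 arrays. Nothing says how rats were assigned to arrays or batches. Genes with values per rat were the mitotic and reticulocyte pairs, called genes, the 5 with the largest moderated t in each direction and the 3 widest ranges. From each other list the called genes, or else the 2 largest differences, were named. Anapc1, Uba6, Ufm1, Ufc1, Cul5, Maea, Hbb, Alas2 and the leave-one-out calls were added after their values were seen. The members and lists were chosen with earlier results of these data known. Alternatives were quantile normalization, median centring, only the brighter probe sets, the control ones included, limma, a stricter FDR, other probe sets per gene, a replicate block and leaving out each rat.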

Additional observations from a re-analysis of the deposited data

How the results depend on the processing

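The number of Ube2 genes called was 2, and became 1 after quantile normalization, 1 with the probe set of lowest mean for each gene, and 0 among the brighter probe sets, with limma or at an FDR of 0.01. It ran from 0 to 3 when each rat was left out. The difference of Ube2c stayed at -0.0056 but was no longer called among the brighter probe sets (FDR 0.0513), with the replicate block (FDR 0.386), with limma (adjusted p 1) or at an FDR of 0.01, and that of Ube2s stayed at -0.0057 and was no longer called among the brighter probe sets (FDR 0.0532), with limma (adjusted p 1) or at an FDR of 0.01. With each rat left out, Ube2c ran from -0.0093 to -0.00052 and Ube2s from -0.011 to -0.0019. Quantile normalization gave 0 for Ube2s and Ube2o and 0.00051 for Ube2h, the probe set of lowest mean gave 5.9e-07 for Ube2s, and centring gave a family median of 1.44e-05. In the marker and pathway lists, 18 calls became 5 after quantile normalization, 0 with limma, 6 at an FDR of 0.01 and 5 to 23 with each rat left out. The cause of these changes was not tested. Correlations of deviations for replicate numbers 1, 2 and 3 were 0.211, 0.04 and 0.0661. MCAO rats 1 and 2 were closest to the sham rat of their own number, and MCAO rat 3 was closest to sham rat 2. This does not settle whether rats of the same number shared a day or batch. With the replicate number as a block 2 Ube2 genes were called, Ube2r2 and Ube2s (FDR 0.0114). With 3 rats per group and DFW values whose ranges differ by orders of magnitude, a gene that was not called is not shown to be equal in both groups.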
